A study of Saccharomyces cerevisiae with 24 samples.

Results

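The step from 5 to 10 min of hypoxia was taken from a time course of baker's yeast, and its members are the libraries labelled 5 and 10 min in nitrogen. They number 6 of the 24 libraries of the series, 3 at each time, and each library at 10 min was matched with the library at 5 min that carries the same replicate number, called a course here. Every group was the same strain, yMH914, a MATa haploid of the S288C background with a repaired HAP1 allele and the markers ura3D0, his3D200, leu2D0 and lys2-128d. It is a single strain, with no mutant among the libraries, grown in rich glucose medium (YPD) and then kept in flasks flushed with 100% nitrogen gas for 5 or 10 min. Both times came after the cultures had been diluted, so that the handling at the start of hypoxia is shared by the groups compared here, which does not hold for a comparison with 0 min. The time since dilution still differs between 5 and 10 min, and no diluted culture kept in air is among the libraries. A continuing response to dilution therefore cannot be told apart from one to nitrogen. Polyadenylated RNA was sequenced, and the deposited values are counts of reads per annotated feature.

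In yeast, oxygen is needed for respiration and for the making of heme, sterols and unsaturated fatty acids. When growth conditions change, cells are known to lower the messages of ribosome biogenesis, the large set of factors that process ribosomal RNA and assemble ribosomes, and to raise those of the environmental stress response (ESR), a common program driven in large part by the factors Msn2 and Msn4. A separate regulator, Hsf1, drives the genes of molecular chaperones, the proteins that help others fold, and is known to act when unfolded protein builds up.

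Between 5 and 10 min the messages of a number of chaperones rose and those of a number of ribosome biogenesis factors fell. Of 6262 genes tested, 38 were higher at 10 min (0.607%) and 61 were lower (0.974%), by edgeR's quasi-likelihood F-test at a Benjamini-Hochberg adjusted p under 0.05 and at least a 2-fold change. Of the 28 Hsf1 chaperone genes, 15 were among those that rose and 0 among those that fell. Of the 99 ribosome biogenesis genes, 29 fell and 0 rose. All 99 called genes had the same sign in the 3 courses, which the test within courses favours. Of all genes tested, 20.4% were higher and 19.3% lower in all 3. The called changes ran from 2.01-fold to 7.87-fold up and from 2.00-fold to 8.30-fold down. These counts depend on the courses fitted: without course 2 1 gene rose (PYC1) and 1 fell (TOD6), against 63 and 103 without course 1 and 15 and 35 without course 3. Both fits with lower counts keep course 1, and the cause was not tested.

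The 6 libraries held between 5771431 counts (course 2, 5 min) and 16346113 counts (course 3, 5 min). Levels are given as CPM, the counts of a gene per 1000000 counts of its library, with totals scaled by TMM factors, so they are shares of the polyadenylated RNA, and a change in a gene's RNA per cell cannot be told apart from an opposite change in the rest of the RNA. Libraries at 5 and 10 min of the same course were alike (Pearson's r of log2 CPM across genes 0.976 to 0.977), as were those of courses 2 and 3 (0.969 to 0.985), whereas course 1 stood apart from both (0.860 to 0.878). In course 1, 84 features had at least 20 counts in every library while averaging at most 1 count per library in courses 2 and 3, and 60 of them lack an entry in the RefSeq annotation. The reverse held for 8 features. The strand setting of the counting is not given in the sources used here, and the part of this difference between courses in the results was not tested. Libraries were matched by course, and the course was a term in the fit. Without that term 3 genes rose and 22 fell. At most 2 counts fell on any of the deleted markers (URA3, HIS3 and LEU2), and the a-cell genes STE2, BAR1 and MFA2 were expressed in all 6 libraries. The alpha-cell gene MF(ALPHA)1 had at most 5 counts, STE3 had 47 to 161, and MF(ALPHA)2 had 93 and 81 counts in course 1 and 0 in courses 2 and 3. The labels do not say whether the courses were separate cultures, so p-values measure the spread between libraries. That spread, and with it each standard error, was estimated over all 24 libraries and not only the 6 at 5 and 10 min.

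**Figure D1:**
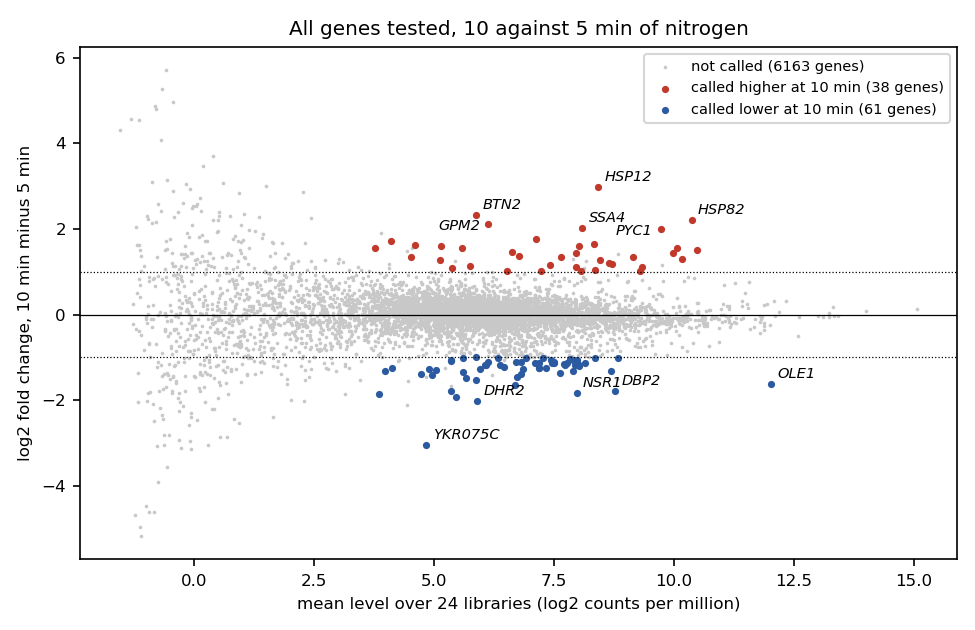
Each point is 1 of the 6262 genes tested, with its mean level over the 24 libraries on the log2 CPM scale on the x axis and its log2 fold change from 5 to 10 min on the y axis. Red points are the 38 genes called higher at 10 min, blue points the 61 called lower, grey points the rest, and the dotted lines mark a 2-fold change, with HSP12 highest and YKR075C lowest among the called genes.

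The sequences before the start codons show what the genes of each group share. Windows of 300 bases before the start codon were read from the R64 genome of RefSeq for 5720 of the genes tested and searched on both strands. GATGAG, the core of the PAC motif, was present in 92 of the 99 ribosome biogenesis windows (92.9%) against 18.7% of all windows, and AAAATTT, the core of the RRPE motif, in 96 (97%) against 25.2%. Of the 61 genes called lower, 51 held GATGAG (83.6%) and 45 held AAAATTT (73.8%). A heat shock element, searched as GAANNTTC or TTCNNGAA, was present in 21 of the 28 Hsf1 chaperone windows (75%) against 22.6% of all windows. AGGGG, the stress response element (STRE) bound by Msn2 and Msn4, was present in 30 of the 40 ESR windows (75%), in 20 of the 38 windows of genes called higher (52.6%) and in 22.5% of all windows. No overlap between these motifs was removed, and a match is a description, not a bound site. Stretches from 250 to 101 bases before the start codon are printed for 3 genes that fell and 3 that rose, chosen because they hold matches. The same stretches of BTN2 and SSA4, which also rose, held 0 matches to the heat shock element. Each printed stretch reads 5′ to 3′ toward the gene, with the matches to the motif chosen for that gene in capitals. These are PAC (GATGAG or its complement CTCATC) and RRPE in the first group, a heat shock element in HSP82 and FES1, and STRE (AGGGG or CCCCT) in HSP12. Matches to the other motifs were left in lower case, so the HSP82 stretch also holds CTCATC and CCCCT unmarked.

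NSR1, chrVII:807757-807906, minus strand: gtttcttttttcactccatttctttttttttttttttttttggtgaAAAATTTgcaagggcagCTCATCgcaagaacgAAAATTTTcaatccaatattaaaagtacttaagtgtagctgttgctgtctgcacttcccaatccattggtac
DBP2, chrXIV:413389-413538, plus strand: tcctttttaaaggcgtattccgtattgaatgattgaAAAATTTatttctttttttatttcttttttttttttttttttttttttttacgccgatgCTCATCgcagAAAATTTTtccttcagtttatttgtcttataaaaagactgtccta
RRP12, chrXVI:529473-529622, plus strand: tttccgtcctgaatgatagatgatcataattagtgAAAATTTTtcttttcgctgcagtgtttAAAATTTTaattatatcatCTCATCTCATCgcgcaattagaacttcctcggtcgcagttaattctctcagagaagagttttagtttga
HSP82, chrXVI:98726-98875, minus strand: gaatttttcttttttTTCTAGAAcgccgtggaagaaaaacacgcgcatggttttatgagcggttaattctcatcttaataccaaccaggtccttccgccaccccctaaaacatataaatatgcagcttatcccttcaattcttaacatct
FES1, chrII:444794-444943, minus strand: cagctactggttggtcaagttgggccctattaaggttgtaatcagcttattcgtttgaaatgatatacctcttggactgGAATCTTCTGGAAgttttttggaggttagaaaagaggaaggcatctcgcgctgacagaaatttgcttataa
HSP12, chrVI:107006-107155, plus strand: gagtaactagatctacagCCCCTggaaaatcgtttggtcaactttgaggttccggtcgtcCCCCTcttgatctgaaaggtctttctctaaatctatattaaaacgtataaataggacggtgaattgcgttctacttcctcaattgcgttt

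Among the chaperones, HSP82 and several genes for helpers of Hsp90 rose. HSP82, an Hsp90 gene, had 411, 410 and 813 CPM at 5 min in courses 1, 2 and 3 and 962, 2566 and 4708 CPM at 10 min. All 3 libraries at 10 min lay above all 3 at 5 min, with a log2 fold change of 2.21 (SE 0.48, edgeR adjusted p = 0.0079). AHA1, which activates its ATPase, went from 140, 126 and 152 CPM to 219, 371 and 587 CPM, with no overlap between the times and a log2 fold change of 1.44 (SE 0.28, edgeR adjusted p = 0.0044). STI1, which links Hsp70 with Hsp90, had a log2 fold change of 1.34 (SE 0.27, edgeR adjusted p = 0.0047), and CPR6, a prolyl isomerase that binds Hsp90, one of 1.11 (SE 0.23, edgeR adjusted p = 0.0052). HSC82, the other Hsp90 gene, went from 1731, 1257 and 1409 CPM to 2069, 2475 and 2792 CPM, which passed the adjusted p (0.024) at 1.66-fold, below the fold minimum. HSP82 and HSC82 are nearly identical, and since only unique alignments entered the counts the split between them is uncertain.

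Hsp70 genes and their partners formed the next group. SSA4, a stress-induced cytosolic Hsp70, had 73.5, 104 and 119 CPM at 5 min and 114, 286 and 1199 CPM at 10 min. It rose in each course, but the 10 min library of course 1 lay below the 5 min library of course 3, and the log2 fold change was 2.02 (SE 0.41, edgeR adjusted p = 0.0047). SSA1 went from 280, 386 and 580 CPM to 470, 1435 and 2203 CPM, again with course 1 at 10 min inside the 5 min range, at a log2 fold change of 1.54 (SE 0.27, edgeR adjusted p = 0.0022). SSA1 and SSA2, and likewise SSA3 and SSA4, are close copies whose reads may be split. The Hsp40 gene SIS1 rose with a log2 fold change of 1.26, the Hsp110 gene SSE2 with 1.46 and FES1, which exchanges the nucleotide of Hsp70, with 1.12. FES1 had 229, 122 and 173 CPM at 5 min and 358, 312 and 435 CPM at 10 min, so that the groups did not overlap (SE 0.17, edgeR adjusted p = 0.00098). KAR2, the Hsp70 of the endoplasmic reticulum, rose from 612, 596 and 870 CPM to 938, 1584 and 2700 CPM (log2 fold change 1.29, SE 0.25, edgeR adjusted p = 0.0042) and was the 1 called gene among 20 of ER folding, whose median was 0.15. Of the mitochondrial chaperones, HSP60 (2.02-fold) and MDJ1 (2.02-fold) were called, while SSC1 (0.56 on the log2 scale) and HSP10 (0.72) passed the adjusted p alone.

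Genes that sort or untangle aggregated protein rose most in courses 2 and 3. BTN2, a factor that gathers misfolded proteins, had 44.7, 20.8 and 53.5 CPM at 5 min and 103, 157 and 316 CPM at 10 min. The groups did not overlap, and the log2 fold change of 2.32 (SE 0.40, edgeR adjusted p = 0.0019) was followed by one of -2.31 from 10 to 30 min (edgeR adjusted p = 0.00083). These steps share the libraries at 10 min. CUR1, a relative of BTN2, rose 2.20-fold, and HSP104, the disaggregase, went from 441, 889 and 1389 CPM to 889, 2303 and 4866 CPM (log2 fold change 1.50, SE 0.36, edgeR adjusted p = 0.016). HSP26, a small heat shock protein, was low in all 6 libraries, at 6.33, 7.71 and 9.71 CPM and then 8.14, 28.1 and 53.6 CPM, and overlapped between the times through course 1 (log2 fold change 1.62, SE 0.41, edgeR adjusted p = 0.02).

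Over the whole list of 28 Hsf1 chaperone genes the median log2 fold change was 1.13, against 0.02 over all genes tested, and the members ran from 0.00 for SSA3 to 2.32 for BTN2. The medians of courses 1, 2 and 3 were 0.61, 1.36 and 1.37. In 25 members (89.3%) the ratio was above 0 in all 3 courses, against 20.4% of all genes. The members that were not called spanned 0.00 to 1.30, and HSP42 (1.30) and HSP78 (1.25) missed the adjusted p (0.099 and 0.11). HSF1 itself did not pass, at 70.4, 50.3 and 57.7 CPM and then 66.9, 62.1 and 55.1 CPM (adjusted p = 0.98). Without course 1, 23 members were called, against 0 without course 2 and 4 without course 3. Without the course term 1 was called.

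**Figure D2:**
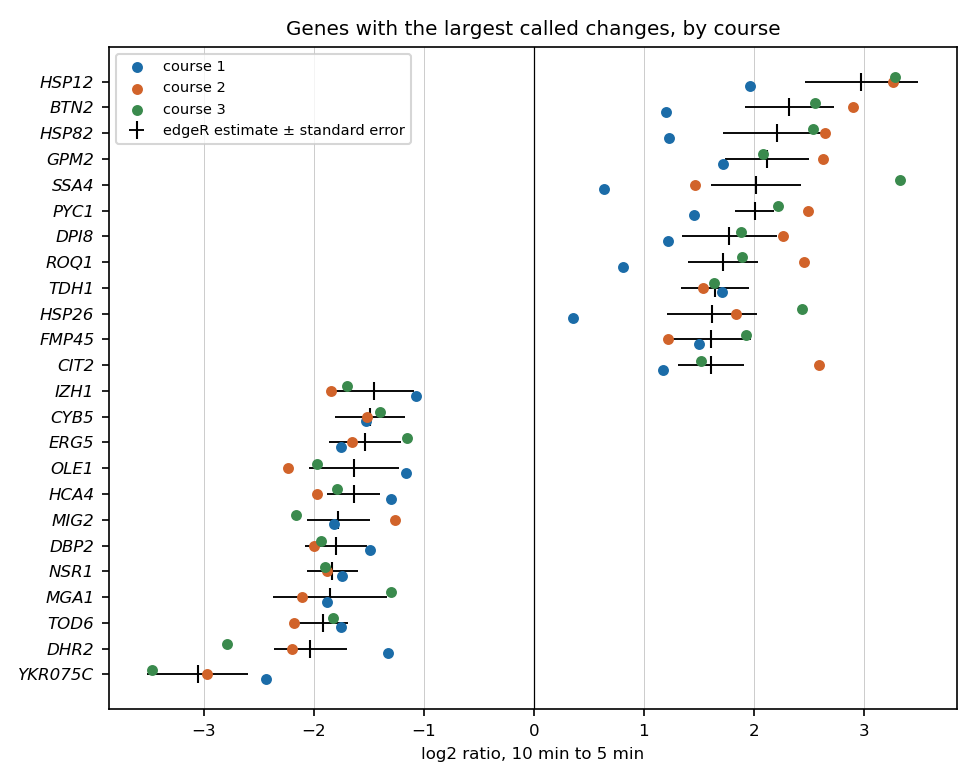
The x axis is the log2 ratio of 10 min to 5 min, with the 12 genes called higher and the 12 called lower that changed most on the y axis. Coloured points are the ratios in the 3 courses and the black marks are the edgeR estimates with their standard errors. Genes were plotted only if all 3 points lay on the same side of 0, and course 1 is nearest to 0 for genes such as SSA4, HSP26 and HSP82.

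Of 40 ESR-induced genes, 8 were called higher and 0 lower, against 0.607% and 0.974% of all genes tested. Their median log2 fold change was 0.80, with 0.49, 0.94 and 0.92 in courses 1, 2 and 3. In 34 (85%) the ratio was above 0 in all 3 courses, against 20.4% of all genes. HSP104, HSP26 and SSA4 stand in both lists, as do HSP42 and HSP78. HSP12, a small protein that binds membranes, made the largest called rise of all genes, from 33.5, 10.6 and 23.3 CPM to 131, 104 and 229 CPM, with no overlap (log2 fold change 2.98, SE 0.52, edgeR adjusted p = 0.0019). From 10 to 30 min it gained a further 2.88 on the log2 scale (edgeR adjusted p = 0.00069), a step that shares the libraries at 10 min. DDR2, a small stress-induced gene, went from 34, 16.2 and 48.4 CPM to 88.8, 64.1 and 138 CPM (log2 fold change 1.56, SE 0.42, edgeR adjusted p = 0.032). HXK1, hexokinase, TFS1, an inhibitor of carboxypeptidase Y, and GRE3, an aldose reductase, rose 2.31-fold, 2.24-fold and 2.06-fold. The genes of trehalose and glycogen synthesis in the list were not called: TPS2 had a log2 fold change of -0.05, GSY1 one of -0.12 and TSL1 one of 0.39. In the step from 0 to 5 min, which shares the 5 min libraries, the same 3 genes had values of 2.93, 5.32 and 4.96. Of the 21 genes of glycogen and trehalose 0 were called, but their median was 0.29, and 14 were higher and 2 lower in all 3 courses. The largest changes, in GPH1 (1.10) and GIP2 (0.92), did not pass (edgeR adjusted p = 0.14 and 0.095). Without course 2 no ESR member was called, against 13 without course 1 and 1 without course 3.

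Several genes of central metabolism rose. PYC1, pyruvate carboxylase, which feeds oxaloacetate into the TCA cycle, had 246, 204 and 197 CPM at 5 min and 675, 1149 and 917 CPM at 10 min. The lowest value at 10 min was well above the highest at 5 min, and the adjusted p was the lowest of all genes (log2 fold change 2.01, SE 0.18, edgeR adjusted p = 5.8e-07). PYC1 remained called without course 2 (edgeR adjusted p = 0.0085). The citrate synthase gene CIT1 went from 131, 148 and 235 CPM to 239, 482 and 600 CPM (log2 fold change 1.33, SE 0.26, edgeR adjusted p = 0.0044). CIT2, the peroxisomal citrate synthase, was far higher in course 1, at 312, 47.6 and 63.3 CPM and then 704, 287.9 and 182 CPM, and rose in each course (log2 fold change 1.61, SE 0.30, edgeR adjusted p = 0.003). PYC1 and CIT1 were the 2 called genes of 16 of the TCA cycle, whose median was 0.31, while 0.607% of all genes were called higher. PYC1 and PYC2, and CIT1 and CIT2, are related pairs in which some reads may not be unique.

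Among 28 genes of glycolysis and fermentation, 3 rose and 0 fell, against 0.607% and 0.974% of all genes, with a median of 0.21. GPM2, a relative of phosphoglycerate mutase, rose from 5.88, 6.56 and 14.2 CPM to 19.9, 41.6 and 60.7 CPM (log2 fold change 2.12, SE 0.39, edgeR adjusted p = 0.0027). TDH1, a glyceraldehyde-3-phosphate dehydrogenase, rose by almost the same amount in each course, from 30.5, 75 and 105 CPM to 100, 218 and 328 CPM (log2 fold change 1.65, SE 0.30, edgeR adjusted p = 0.003), although course 1 at 10 min lay within the 5 min range. HXK1 was the third. TDH1, TDH2 and TDH3 are close copies. STF1 and STF2, regulators of the inhibition of the mitochondrial ATPase, were the 2 called genes of 17 of the ATP synthase list (log2 fold changes 1.26 and 1.01). The median of these 17 was 0.39, with 0.05, 0.77 and 0.48 in courses 1, 2 and 3. In all 3 courses 12 (70.6%) were higher and 0 lower, against 20.4% and 19.3% of all genes. Of the respiratory chain 0 of 26 genes were called, and SDH1 (0.79) and SDH2 (0.83), subunits of succinate dehydrogenase, passed the adjusted p alone. The list's median was 0.18, with 8 genes higher and 2 lower in all 3 courses. Its largest change was a fall in NDE1, from 935, 1700 and 1707 CPM to 336, 540 and 640 CPM. NDE1 did not pass (log2 fold change -1.51, SE 0.49, edgeR adjusted p = 0.085). Without course 2 the adjusted p of GPM2 was 0.26, of TDH1 0.25, of CIT1 0.32 and of CIT2 0.25.

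DPI8 and ROQ1 rose without belonging to a list. DPI8 went from 104, 55.2 and 67.3 CPM to 242, 266 and 249 CPM (log2 fold change 1.77, SE 0.43, edgeR adjusted p = 0.016). ROQ1, whose product redirects the ubiquitin ligase Ubr1 to misfolded proteins, went from 12.5, 6.94 and 12 CPM to 22.2, 38.9 and 45.1 CPM (log2 fold change 1.72, SE 0.32, edgeR adjusted p = 0.003). FMP45, a membrane protein gene, rose 3.05-fold from 11.1, 9.64 and 12.4 CPM to 31.7, 22.7 and 47.6 CPM (edgeR adjusted p = 0.0094). In all of these the groups did not overlap, as in 27 of the 38 genes called higher. Over all genes tested, 4.25% had all libraries at 10 min above all at 5 min.

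**Figure D3:**
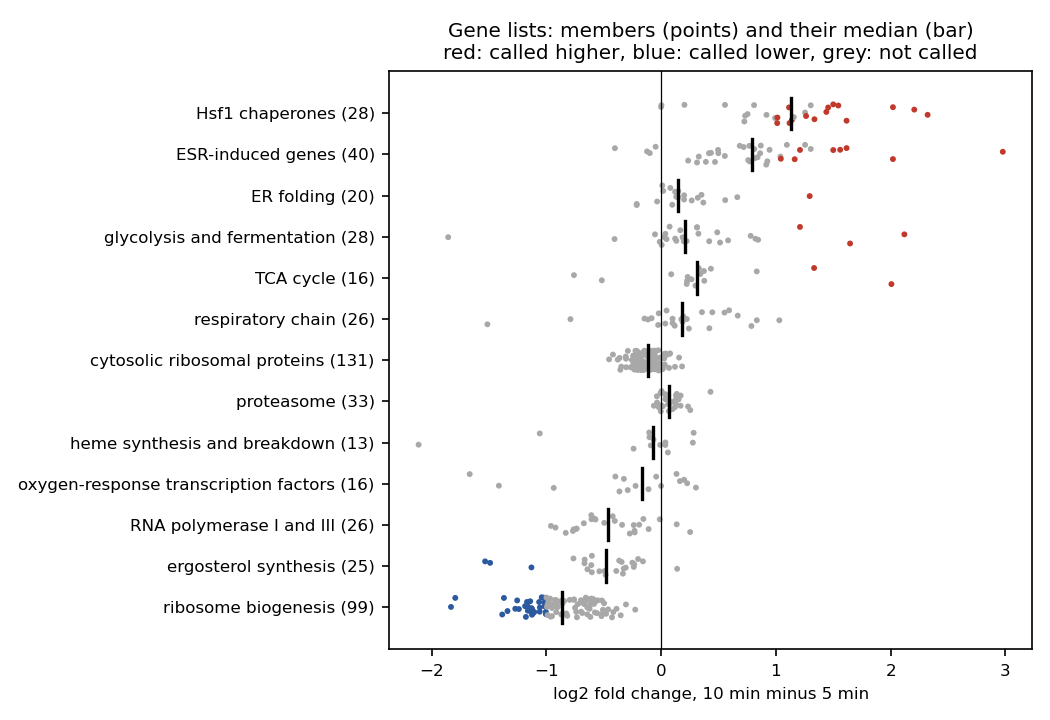
Each point is a gene, placed by its log2 fold change from 5 to 10 min on the x axis, in 13 gene lists on the y axis with the number of genes tested in brackets. Red points were called higher, blue points lower and grey points neither, and the black bars are list medians, from 1.13 for the Hsf1 chaperones to -0.87 for ribosome biogenesis.

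Of the 99 ribosome biogenesis genes, 29 were called lower. The list's median log2 fold change was -0.87, with -0.70, -0.91 and -1.08 in courses 1, 2 and 3. In 97 of 99 (98%) the ratio was below 0 in all 3 courses, against 19.3% of all genes, and the members ran from -1.83 for NSR1 to -0.23. With no fold minimum 66 of the 99 fell, against 3.34% of all genes. In the step from 0 to 5 min 77 members were called lower, and from 10 to 30 min 11, and these steps share the libraries at 5 and at 10 min with the step described here. Without course 1, 48 members were called, against 0 without course 2 and 15 without course 3. Without the course term 9 were called.

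NSR1, a nucleolar protein of pre-rRNA processing, had 229, 265 and 239 CPM at 5 min and 68.4, 71.9 and 64 CPM at 10 min. The libraries of each time lay close together and far from those of the other (log2 fold change -1.83, SE 0.23, edgeR adjusted p = 0.00013). DBP2, an RNA helicase gene whose upstream stretch is printed above, went from 456, 566 and 501 CPM to 163, 142 and 131 CPM (log2 fold change -1.79, SE 0.28, edgeR adjusted p = 0.0011). From 10 to 30 min, a step that shares the libraries at 10 min, its log2 fold change was -1.97 (edgeR adjusted p = 0.00018). RRP12, an export factor of both subunits, went from 151, 300 and 212 CPM to 78.7, 91.5 and 69.8 CPM (log2 fold change -1.37, SE 0.23, edgeR adjusted p = 0.0014). ALB1, an assembly factor of the large subunit, had 45.7, 20.8 and 30.8 CPM and then 20, 9.02 and 8.99 CPM (log2 fold change -1.38, SE 0.29, edgeR adjusted p = 0.006). None of these 4 genes overlapped between the times, and 5.56% of all genes tested likewise had all libraries at 10 min below all at 5 min. Without course 2 their adjusted p was 0.11 for NSR1, 0.23 for DBP2 and 0.25 for RRP12 and ALB1.

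A pair of helicases that process ribosomal RNA were outside the list and fell among the most. DHR2 went from 36.9, 44.2 and 56.9 CPM to 14.6, 9.5 and 8.05 CPM (log2 fold change -2.03, SE 0.33, edgeR adjusted p = 0.0012), and HCA4 from 98.5, 117 and 91.7 CPM to 40, 29.7 and 26.4 CPM (log2 fold change -1.64, SE 0.24, edgeR adjusted p = 0.00098). TOD6, a repressor that binds the PAC motif, fell as well. Its values were 35.5, 28.2 and 24.8 CPM at 5 min and 10.4, 6.05 and 6.89 CPM at 10 min (log2 fold change -1.92, SE 0.23, edgeR adjusted p = 9e-05), and it was the 1 gene called lower without course 2 (edgeR adjusted p = 0.043). Without that course DHR2 had an adjusted p of 0.20 and HCA4 of 0.23.

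The other parts of the translation machinery moved less. Of 26 subunits and factors of RNA polymerases I and III, 0 were called, 9 passed the adjusted p alone, all of them lower, and the median was -0.46, with -0.46, -0.50 and -0.48 in the courses. RPA135, a large subunit of RNA polymerase I, went from 253, 582 and 441 CPM to 172, 265 and 182 CPM (log2 fold change -0.96, edgeR adjusted p = 0.0044), and RPA43 had a log2 fold change of -0.92. The 131 genes of cytosolic ribosomal proteins had a median of -0.11, and 0 of them passed the adjusted p. Their course medians were -0.05, 0.07 and -0.36. Many ribosomal protein genes are duplicated, so some reads may have gone uncounted. The 64 genes of the mitochondrial ribosome had a median of 0.16 and 0 passed.

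Some genes of sterol and fatty acid synthesis, pathways that use oxygen at several steps, fell. Of 25 ergosterol genes 3 were called lower and 0 higher, 12 passed the adjusted p, and 23 (92%) were lower in all 3 courses, with a median of -0.48. Of all genes tested, 0.974% were called lower, 3.34% were lower by the adjusted p alone and 19.3% were lower in all 3 courses. ERG5, the C-22 desaturase, fell from 150, 103 and 105 CPM to 44.2, 32.7 and 47.4 CPM (log2 fold change -1.53, SE 0.33, edgeR adjusted p = 0.0064). CYB5, cytochrome b5, which passes electrons to sterol and lipid enzymes, fell by nearly the same amount in each course, from 81.5, 52.3 and 59.8 CPM to 28.1, 18.1 and 22.6 CPM (log2 fold change -1.49, SE 0.32, edgeR adjusted p = 0.0067). HMG1, an HMG-CoA reductase, went from 226, 308 and 311 CPM to 98.6, 142 and 151 CPM (log2 fold change -1.13, SE 0.27, edgeR adjusted p = 0.013). ERG11, a demethylase that needs oxygen and heme, was lower at 1.70-fold (edgeR adjusted p = 0.021). Of 19 genes of the fatty acid and phospholipid list 1 was called lower and 0 higher, with a median of -0.18, and 3 had a ratio above 0 and 9 below 0 in all 3 courses. The called gene, OLE1, the fatty acid desaturase, had 2487, 2399 and 1189 CPM at 5 min and 1115, 511 and 303 CPM at 10 min, with no overlap (log2 fold change -1.63, SE 0.41, edgeR adjusted p = 0.02). Without course 2 the adjusted p was 0.11 for ERG5, 0.25 for CYB5, 0.32 for HMG1 and 0.58 for OLE1.

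Several regulators fell. MIG2, a repressor in glucose signalling, went from 53.1, 43.2 and 56.6 CPM to 15, 17.9 and 12.5 CPM (log2 fold change -1.77, SE 0.29, edgeR adjusted p = 0.0012). MGA1, which resembles a heat shock factor, had 47.5, 65.6 and 46.5 CPM and then 12.8, 15.1 and 18.8 CPM (log2 fold change -1.85, SE 0.52, edgeR adjusted p = 0.041). RAS1, a GTPase of the cAMP pathway, stood at the fold threshold (2.00-fold lower, edgeR adjusted p = 0.0048) and passed in 4 of 12 alternative settings. MIG2, MGA1, RAS1 and TOD6 were the 4 called genes of 42 in the list of stress signalling and early transcription factors, while 0.974% of all genes were called lower. The largest fall of all called genes was in YKR075C, an open reading frame with no standard name, from 50.5, 68.1 and 186 CPM to 9.18, 8.54 and 16.7 CPM (log2 fold change -3.05, SE 0.46, edgeR adjusted p = 0.00098). SAM1, an S-adenosylmethionine synthetase, fell 2.51-fold and IZH1, a membrane protein of zinc homeostasis, 2.74-fold. Without course 2 the adjusted p of MIG2, MGA1, RAS1, YKR075C, SAM1 and IZH1 lay between 0.20 and 0.55.

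Genes of the oxygen response itself mostly did not pass at this step, which also held for 6163 of the 6262 genes tested. Of a fixed set of 28 genes taken from the study's text, which does not hold every gene named there (ERG5 and HSP60, given above, are outside it), 2 were called, HSP12 and NCE103. Both were higher, as were 0.607% of all genes tested, and 0.974% were called lower. NCE103, the carbonic anhydrase, went from 525, 90.6 and 88.4 CPM to 710, 380 and 244 CPM (log2 fold change 1.19, SE 0.33, edgeR adjusted p = 0.041, and 0.66 without course 2). Of the 16 transcription factors of the oxygen response 0 were called, a count too small to set against the shares of all genes. Their median log2 fold change was -0.17. In all 3 courses 8 (50%) were lower and 1 (6.25%) was higher, against 19.3% and 20.4% of all genes. HAP4, a subunit of the activator of respiratory genes, had 159, 257 and 399 CPM and then 66.6, 112 and 124 CPM, just outside the threshold (log2 fold change -1.41, SE 0.41, edgeR adjusted p = 0.051). ROX1, the repressor of hypoxic genes, had 124, 143 and 56.8 CPM and then 26.1, 37.6 and 38.7 CPM (log2 fold change -1.67, SE 0.49, edgeR adjusted p = 0.056), and MOT3, its partner, had a log2 fold change of -0.94 (edgeR adjusted p = 0.074). In each of these 3 genes all libraries at 10 min lay below all at 5 min, as for 5.56% of all genes tested. HMX1, heme oxygenase, had 89, 44 and 47.4 CPM and then 13.8, 15.2 and 14.4 CPM, and with a standard error of 0.81 its log2 fold change of -2.11 gave an adjusted p of 0.18. That standard error takes in the spread at the other times, such as 30 min, where HMX1 had 0.72, 4.47 and 28.6 CPM. CYC1, which the study describes as responding within 10 min, had 153, 118 and 110 CPM and then 74.2, 73.5 and 76 CPM. Its times did not overlap, but its log2 fold change of -0.79 (SE 0.54) did not pass (edgeR adjusted p = 0.59). COX5B was higher without overlap, as for 4.25% of all genes, and did not pass (log2 fold change 0.78, edgeR adjusted p = 0.099). HEM13, a heme synthesis gene of the hypoxic set, had 53.3, 86.6 and 112 CPM at 5 min and 45.1, 82.2 and 111 CPM at 10 min (edgeR adjusted p = 0.92). ANB1 and DAN1, which are used in the absence of oxygen, also did not pass, with adjusted p of 0.97 and 0.67.

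**Figure D4:**
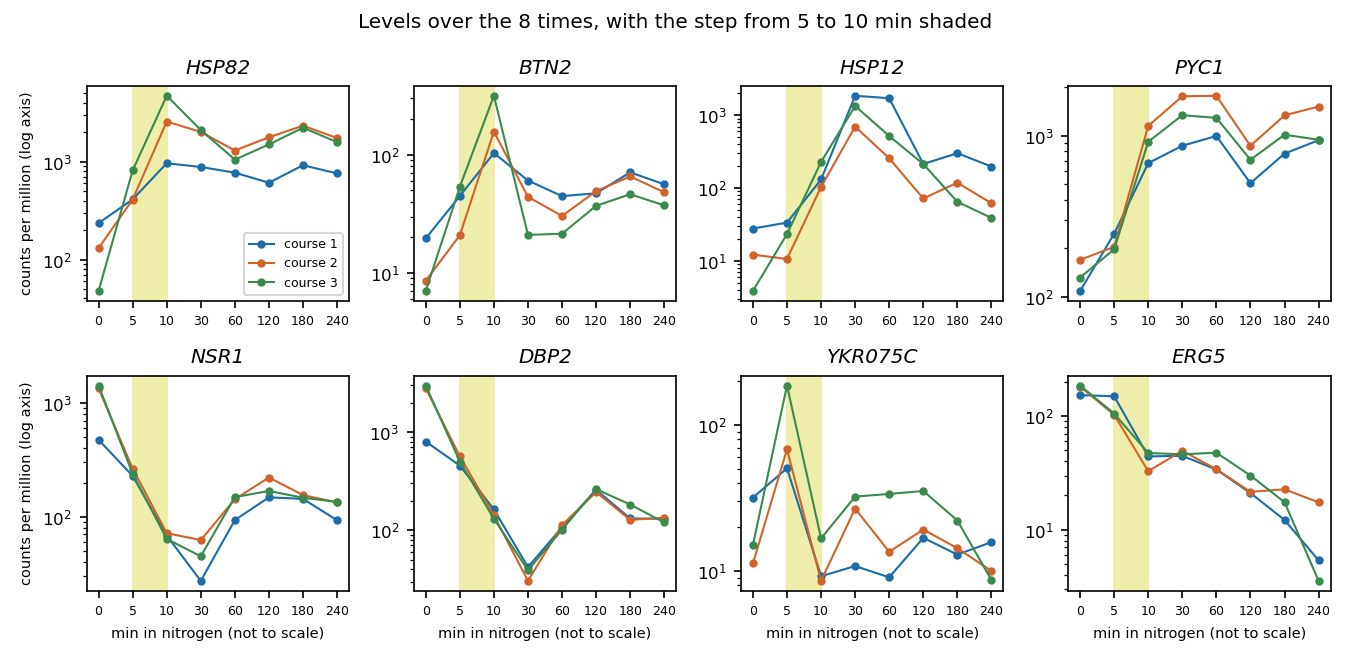
Levels of 8 genes in CPM on a log axis, against the 8 times in nitrogen, which are spaced evenly and not to scale. Lines are the 3 courses and the shaded band is the step from 5 to 10 min, in which HSP82, BTN2, HSP12 and PYC1 rise and NSR1, DBP2, YKR075C and ERG5 fall in all 3 courses.

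The size of the whole step was also measured in each course as the distance between the log2 levels of the 6262 genes at 5 and 10 min. It was 40.3, 52.1 and 53.0 in courses 1, 2 and 3, equal to a root mean square log2 ratio of 0.51, 0.66 and 0.67 per gene and a mean of 0.61 (SD 0.09, n = 3). The step from 0 to 5 min measured 46.3, 77.7 and 76.6, larger in each course, and that from 10 to 30 min 48.8, 50.7 and 70.5, which was larger in courses 1 and 3 and slightly smaller in course 2. In the step from 0 to 5 min 278 genes were called higher (4.44%) and 236 lower (3.77%), and in that from 10 to 30 min 103 (1.64%) and 73 (1.17%). Neighbouring steps share libraries, and the intervals differ in length.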

How the data were processed

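The authors mapped reads with TopHat2 to R64 and counted them per feature with HTSeq (versions and strand setting not given in the sources used here), and deposited counts for 7140 features. Lines that name no gene were left out: in courses 2 and 3 at 5 and 10 min these were 4.27% to 4.34% of reads outside features and 0.29% to 0.31% ambiguous. Alignments that were not unique numbered 57.8 to 84.6 per 100 counted reads. The course 1 files do not give them.

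edgeR 4.0.16 (R 4.3.3) was fitted to all 24 libraries with TMM factors, filterByExpr by time (6262 genes), time as a factor and the course as a block (14 residual degrees of freedom, biological coefficient of variation 0.196). Log2 CPM used a prior count of 2. The replicate number was used to pair libraries. Deviations from the mean of each time correlated at 0.91, 0.72 and 0.70 within courses 1, 2 and 3. They correlated at 0.64 and 0.65 between courses 2 and 3 and below 0 between course 1 and either. The 3 deviations of a gene at a time sum to 0 and course 1 stood apart, so these values cannot show that courses 2 and 3 are paired. Across genes, course 3 at 5 min had r = 0.980 with course 2 at 10 min and 0.976 with its own course. Course 2 at 5 min had 0.977 with its own course and 0.969 with course 3. Libraries of a time were not duplicates.

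Named genes are the 12 called rises and 12 called falls of largest size with 1 sign in all courses, up to 4 called members of each of 41 lists (or the 2 largest changes where none is called), and 28 genes taken from the study's text, not all it names. Other genes named, such as FES1, AHA1, STI1, SSA1, HSC82, HSP104, the members of lists outside this rule and those of the other observations, and the heat shock element, were chosen after values were seen. The members and lists were chosen with earlier results of these data known. Lists are described by counts and medians, with no test. Alternatives were DESeq2 1.42.0, RLE or total-count scaling, other filters, no fold minimum, no block, the 6 libraries alone and each course left out. Steps were tested on simulated data. Promoter windows came from the RefSeq R64 genome (Python 3.11.15).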

Additional observations from a re-analysis of the deposited data

How the results depend on the processing

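With no replicate block 3 genes were called higher and 22 lower, all of them among those called with it. With only the 6 libraries of 5 and 10 min and no block 0 were called either way by edgeR, with 331 at an unadjusted p under 0.05, against 51 higher and 85 lower with the block. DESeq2 called 40 and 61. With no fold minimum 73 were higher and 209 lower. Leaving out each course in turn gave 1 to 63 genes higher and 1 to 103 lower, the lowest counts without course 2, where 496 genes had an unadjusted p under 0.05. Called Hsf1 chaperones ranged from 0 to 23 and called ribosome biogenesis genes from 0 to 48 in these fits, and with no replicate block there were 1 and 9. The medians of both lists kept their sign with no replicate block, with total-count scaling and with each course left out. They were not computed for the other alternatives. Each list's course medians also had the same sign in all 3 courses, so leaving out a course could hardly reverse the sign. The step size was 0.44 over genes with at least 20 counts in each library. Of the 36 called genes named by the rule, 10 stayed called with no replicate block. Their number was 34 with course 1 left out, 2 with course 2 left out and 19 with course 3 left out. None changed sign in any alternative, but each had the same sign in all 3 courses. Leaving out a course could therefore hardly reverse them, and the kept sign is no added support. The causes were not tested. RLE factors and total-count scaling moved the median of all genes by less than 0.02 on the log2 scale. Depth limits genes of low level, whose ratios rest on few counts.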

Other observations

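A few genes outside the comparisons above were looked at after their values were seen. DLD3, a D-lactate dehydrogenase family gene, went from 432, 329 and 349 CPM at 5 min to 934, 1151 and 1002 CPM at 10 min in courses 1, 2 and 3 (log2 fold change 1.43, SE 0.23, edgeR adjusted p = 0.0012). Together with CIT2 and PYC1 it is a known target of the retrograde pathway, through which mitochondrial state reaches the nucleus. CIT1, ACO1, IDH1 and IDH2 are targets of that pathway in cells with damaged mitochondria. CIT1 was called, as given above (log2 fold change 1.33, edgeR adjusted p = 0.0044). ACO1, IDH1 and IDH2 had log2 fold changes of 0.34, 0.33 and 0.43 and did not pass (edgeR adjusted p = 0.67, 0.72 and 0.73).

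Among the genes that fell, AAH1, adenine deaminase, had 158, 110 and 116 CPM and then 90.5, 39.6 and 25.2 CPM (log2 fold change -1.39, edgeR adjusted p = 0.0042). URA7, a CTP synthase, had 312, 269 and 257 CPM and then 153, 122 and 86 CPM (log2 fold change -1.21, edgeR adjusted p = 0.0012). In both, all libraries at 10 min lay below all at 5 min, as for 5.56% of all genes tested.

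YKR075C, MGA1, YJR115W and MPF1 were each called higher from 0 to 5 min, by 2.15, 3.10, 2.18 and 2.05 on the log2 scale, and lower from 5 to 10 min, by -3.05, -1.85, -1.32 and -1.27. Both steps use the same 5 min libraries, so an error there would push them in opposite directions. From 10 to 30 min their values were 1.04, -0.30, 0.28 and 0.30, and none of these passed.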
